A study of Mus musculus with 2 samples.

Results

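The enzymes that make and break down the cyclic nucleotides cAMP and cGMP were followed across types of neuronal nuclei from the mouse preoptic area (POA) after ultrasound. The gene symbols were chosen by name: the phosphodiesterases Pde1 to Pde11 followed by 1 letter, the adenylyl cyclases (Adcy and a number), and every gene whose symbol begins with Gucy1 or Gucy2. This gave 41 of the 32285 genes in the files, namely 10 adenylyl cyclases, 9 guanylyl cyclase genes and 22 phosphodiesterase genes.

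Wild-type mice of 6 to 9 weeks were compared in a study of a torpor-like state that ultrasound brings about from the POA, the hypothalamic area that sets body temperature. The US+ library holds nuclei of 4 mice dissected about 1 h after ultrasound, and the US- library holds nuclei of 4 sham mice. In each group the tissue of the 4 mice was pooled, and about 25000 nuclei per group were collected by sorting on the neuronal antigen NeuN. Each group is therefore 1 library, and no spread between mice can be had. For its first experiments the study used C57BL/6NCrl mice of both sexes, and the sexes in these pools are not given in the sources used here.

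Adenylyl cyclases form cAMP from ATP and take their orders mainly from G proteins and, for some, from calcium. Guanylyl cyclases form cGMP from GTP, either as the soluble receptor for nitric oxide, built of an alpha and a beta subunit, or as receptors in the membrane. Phosphodiesterases end both signals, and their families differ in which nucleotide they cut and in what controls them. In striatal neurons, dopamine acts through D1 receptors to raise cAMP and through D2 receptors to lower it.

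Promoter sequences are shown for members that were higher in both striatal types of nuclei described later. They came from the RefSeq promoter table of GRCm38.p6, in which 32 of the 41 members were found, and run from 250 bases before to 50 bases after a start, 5′ to 3′. Adcy5 and Pde7b are shown as the cyclase and the phosphodiesterase of that group with a single listed start, and Pde2a and Pde8b because 1 of their listed starts holds the half-site TGACG of the cAMP response element. Capitals mark that half-site on either strand.
Adcy5 (chr16:35154614-35154913, + strand): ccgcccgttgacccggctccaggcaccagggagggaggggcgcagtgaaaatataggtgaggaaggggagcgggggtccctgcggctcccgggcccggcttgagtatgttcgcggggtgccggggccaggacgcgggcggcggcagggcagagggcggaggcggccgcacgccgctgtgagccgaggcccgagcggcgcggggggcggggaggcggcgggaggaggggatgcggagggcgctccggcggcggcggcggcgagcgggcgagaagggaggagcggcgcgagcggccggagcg
Pde7b (chr10:20548279-20548578, - strand): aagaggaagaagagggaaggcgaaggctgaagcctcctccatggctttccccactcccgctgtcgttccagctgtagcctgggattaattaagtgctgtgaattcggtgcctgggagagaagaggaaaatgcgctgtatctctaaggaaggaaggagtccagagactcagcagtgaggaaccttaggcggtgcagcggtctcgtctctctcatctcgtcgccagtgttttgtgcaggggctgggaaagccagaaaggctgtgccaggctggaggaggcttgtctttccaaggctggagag
Pde2a (chr7:101450270-101450569, + strand): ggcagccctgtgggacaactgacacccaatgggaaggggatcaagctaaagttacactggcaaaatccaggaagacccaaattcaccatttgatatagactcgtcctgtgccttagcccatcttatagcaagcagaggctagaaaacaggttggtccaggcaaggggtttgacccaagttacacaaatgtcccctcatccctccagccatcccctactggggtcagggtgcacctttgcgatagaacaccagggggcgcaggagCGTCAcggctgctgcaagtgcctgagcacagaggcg
Pde8b (chr13:95223001-95223300, - strand): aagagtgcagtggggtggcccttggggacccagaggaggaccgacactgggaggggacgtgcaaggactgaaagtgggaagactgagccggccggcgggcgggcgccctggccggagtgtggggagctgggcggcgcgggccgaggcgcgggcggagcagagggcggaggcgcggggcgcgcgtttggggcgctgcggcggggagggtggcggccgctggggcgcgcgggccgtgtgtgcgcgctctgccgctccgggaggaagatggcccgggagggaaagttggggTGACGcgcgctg
The half-site was in a promoter of 2 of the 7 members that were higher in both striatal types, of 11 of 32 member genes (34.4%), and of 23.0% of all 27025 genes in the table. Counted per promoter, since a gene can have several, it was in 11 of 58 member promoters (19.0%) and in 20.8% of all 32851 promoters. The full palindromic element TGACGTCA, which contains the half-site on both strands, was in 0 of 58 member promoters and in 1.79% of all 32851 promoters. A match is a description of these letters only.

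The US+ matrix held 12075 nuclei with 95029281 unique molecular identifiers (UMIs), and the US- matrix 11725 nuclei with 101948623 UMIs. Nuclei with 200 to 7500 genes, at most 5% mitochondrial UMIs and at least 2000 UMIs were kept, which left 9912 US+ and 11040 US- nuclei. Of all 20952 kept nuclei, 8676 (41.4%) met the marker rule of exactly 1 of 6 types. UMIs were summed per type and library, which gave 12 sums, and levels are in counts per 1000000 UMIs of a sum (CPM). A level is compared here only within a gene, since gene length and the share of unspliced RNA differ between genes.

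The types were the Drd1 type (Rarb and Drd1 detected), the Drd2 type (Rarb and Drd2), the Chst9/Foxp2 type (both genes), the Lhx8 type, the Esr1 type (at least 3 UMIs of Esr1) and the Slc17a6 type. The Drd1 type held 262 US+ and 959 US- nuclei, the Drd2 type 211 US+ and 750 US-, the Chst9/Foxp2 type 183 US+ and 306 US-, the Lhx8 type 795 US+ and 1427 US-, the Esr1 type 766 US+ and 479 US-, and the Slc17a6 type 1435 US+ and 1103 US- nuclei. Markers outside the rules fitted the names in part. In the Drd2 type, Adora2a, the adenosine receptor of striatal D2 neurons, stood at 61.3 CPM (US+) and 108 CPM (US-), against 1.07 and 2.47 CPM in the Slc17a6 type. With Penk, Gpr6 and Gpr52 it summed to 577 and 416 CPM in the Drd2 type. The same sum was 179 and 67.5 CPM in the Chst9/Foxp2 type and 72.9 and 39.6 CPM in the Drd1 type. Markers of the Chst9/Foxp2 type (Tshz1, Meis2 and Oprm1) summed to 2384 and 2648 CPM there. In the Drd1 type they still summed to 1282 and 1324 CPM and in the Drd2 type to 1632 and 1823 CPM. The summed markers of striatal neurons (Bcl11b, Ppp1r1b, Rgs9 and Foxp1) stood at 1257 and 1460.0 CPM in the Drd1 type and at 1563 and 2115 CPM in the Drd2 type, against 377 to 582 CPM in the other 4 types. Preoptic markers (Nkx2-1, Hmx2, Hmx3, Opn5 and Ptger3) summed to only 7.29 and 5.62 CPM in the Drd1 type, against 29.8 and 31.8 CPM in the Esr1 type. Whether striatal tissue next to the POA was dissected with it was not tested. The 4 neuronal markers summed to 2665 to 5123 CPM over the 12 sums. Of markers of other cells, the 5 of microglia summed to 106 to 172 CPM, the 6 of oligodendrocytes to 36.4 to 85.1 CPM and the 6 of astrocytes to 3.85 to 23.3 CPM.

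Of the 41 members, 37 passed the filter on low counts and were tested in the fit. Adcy4, Gucy2c, Gucy2d and Pde4c did not pass: they had 6, 113, 29 and 40 UMIs over both libraries and never exceeded 0.865 CPM in any sum. Gucy1b2, Gucy2e, Gucy2f, Gucy2g, Pde5a, Pde6b and Pde6c passed but stayed at or below 2.70 CPM in every sum. Gucy2c is the receptor for guanylin peptides of the gut, Gucy2d a cyclase of olfactory neurons, and Gucy2e, Gucy2f, Pde6b and Pde6c belong to photoreceptors.

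Each type was compared with the mean of the other 5 by edgeR's quasi-likelihood F test on the 12 sums, with the library as a block and p-values adjusted by Benjamini-Hochberg over all 17507 genes tested. A gene was called when the adjusted p was under 0.05 and the fold at least 2. For the Chst9/Foxp2, Lhx8, Esr1 and Slc17a6 types that mean includes the Drd1 and Drd2 types. A gene high in both of these is thereby drawn towards a lower call elsewhere. The spread in this test is what the types differ by between the 2 libraries, so it also holds any response to ultrasound that differs between types, and it says nothing about mice. In brackets stands the share of all tested genes that the same rule called. In the Drd1 type 9 members were called higher (4.19%) and 2 lower (3.37%), or 11 either way (7.56%). In the Drd2 type 9 were higher (4.11%) and 5 lower (2.91%), or 14 either way (7.01%). The Esr1 type had 4 higher (2.96%) and 7 lower (2.74%), or 11 (5.70%), and the Lhx8 type 3 higher (4.80%) and 6 lower (4.08%), or 9 (8.88%). The Slc17a6 type had 1 higher (3.84%) and 5 lower (2.26%), or 6 (6.11%), and the Chst9/Foxp2 type 1 higher (2.44%) and 2 lower (0.554%), or 3 (2.99%). In all, 20 of the 37 tested members were called in at least 1 type. Among all tested genes it was 3523 of 17507 (20.1%).

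Without the limit on the fold, an adjusted p under 0.05 was reached by 18 members in the Drd1 type (22.6% of all genes), 22 in the Drd2 type (20.4%), 20 in the Lhx8 type (30.0%), 19 in the Esr1 type (19.4%), 19 in the Slc17a6 type (20.7%) and 8 in the Chst9/Foxp2 type (8.39%). The members were tested because they passed a filter that genes high in any type pass more easily, so that these shares describe the tested members and are not read as a property of the family.

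**Figure D1:**
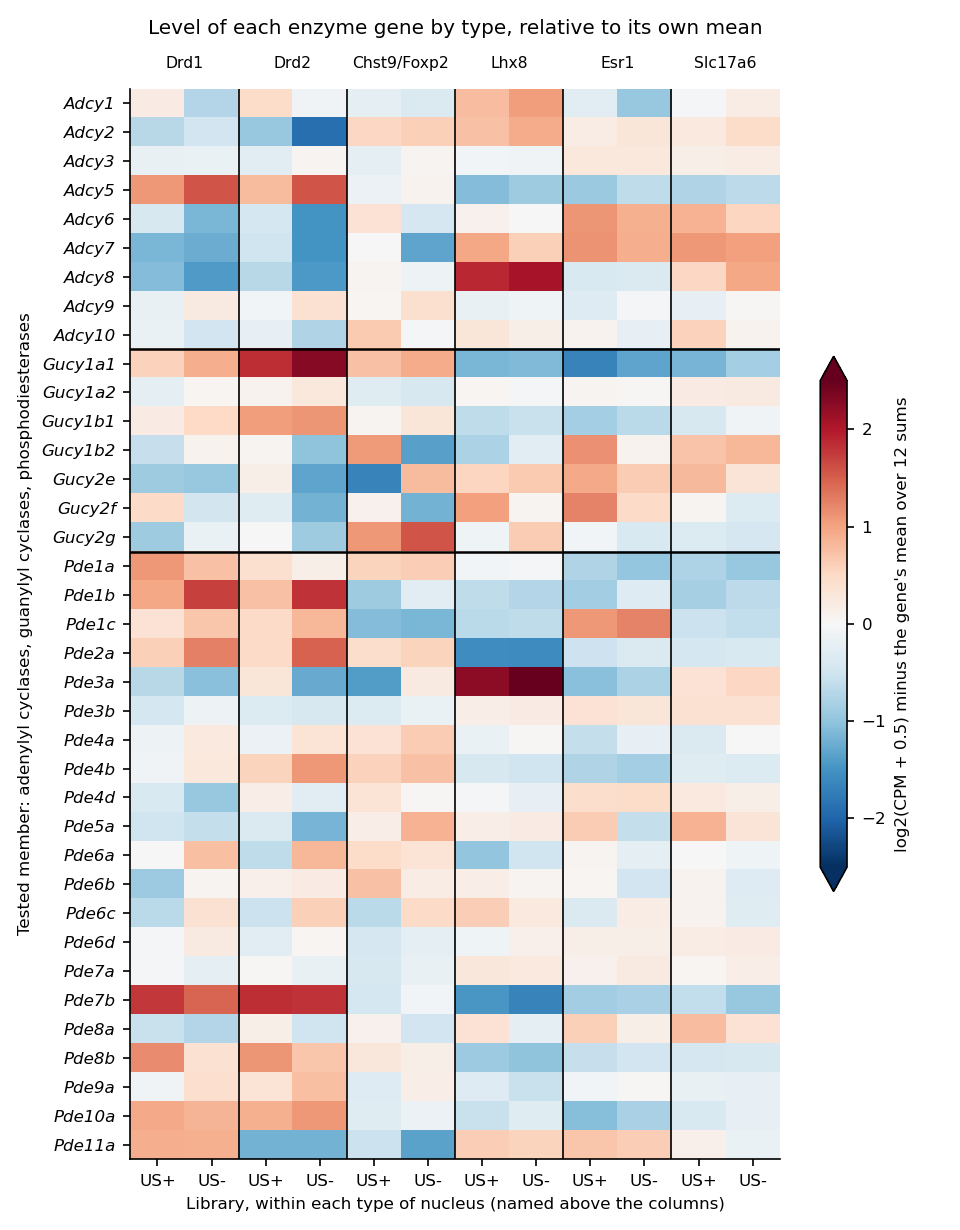
Level of each of the 37 tested members in the 12 sums, as log2(CPM + 0.5) minus the gene's own mean over the sums, with US+ left of US- within each type. Pde7b, Adcy5, Pde1b and Gucy1a1 are red in the Drd1 and Drd2 columns of both libraries, and Pde3a and Adcy8 are red in the Lhx8 columns.

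Pde7b, Pde1b, Pde2a, Pde8b, Pde10a, Adcy5 and Gucy1a1 were called higher in both the Drd1 and the Drd2 type, as were 2.64% of all genes. For 5 of these 7 (Pde7b, Pde1b, Pde8b, Pde10a and Adcy5) the lowest of the 4 Drd1 and Drd2 sums lay above the highest of the other 8, which held for 58.5% of the 463 genes called higher in both. For Gucy1a1 and Pde2a the Chst9/Foxp2 type overlapped that range.

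Adcy5, the main cyclase of striatal neurons and one that calcium and inhibitory G proteins restrain, was at 259 CPM (US+) and 364 CPM (US-) in nuclei of the Drd1 type and at 211 and 363 CPM in the Drd2 type. The other 8 sums lay between 57.2 and 130 CPM. Its log2 fold was 1.77 ± 0.09 (SE; edgeR adjusted p = 1.5e-09) in the Drd1 type and 1.63 ± 0.09 (edgeR adjusted p = 4.0e-09) in the Drd2 type. The gene lies at chr16:35154877-35305738 on the + strand of GRCm38 (GENCODE M21), with no overlapping gene on that strand. Adcy6, its closest relative, ran the other way. It was at 30.7 and 26.4 CPM in the Esr1 type (US+ and US-), above all 10 other sums, and at 10.2 and 4.67 CPM in the Drd2 type, with log2 folds of 1.10 ± 0.15 and -1.10 ± 0.22 (edgeR adjusted p = 7.5e-05 and 0.0019).

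Adcy8 and Adcy1, which calcium and calmodulin stimulate, both peaked in the Lhx8 type. Adcy8 stood at 232 CPM (US+) and 262 CPM (US-) in nuclei of that type, against 22.9 to 123 CPM in the other 10 sums (log2 fold 2.37 ± 0.15, edgeR adjusted p = 6.8e-06). Adcy1 stood at 37.0 and 44.4 CPM there, against 10.9 to 29.8 CPM elsewhere (log2 fold 1.12 ± 0.20, edgeR adjusted p = 0.0026). Neither gene overlapped another type. Adcy8 was called lower in both striatal types, with 29.1 and 23.1 CPM in the Drd1 type and 38.7 and 22.9 CPM in the Drd2 type (log2 folds -1.39 ± 0.22 and -1.16 ± 0.22).

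Adcy2 and Adcy7, which G protein beta-gamma subunits stimulate, were low in the Drd2 type. Adcy2 was at 117 CPM (US+) and 60.3 CPM (US-) in nuclei of the Drd2 type, below all other sums (138 to 430 CPM), with a log2 fold of -1.52 ± 0.24 (edgeR adjusted p = 0.0049). Adcy7 was low throughout the striatal types, at 3.64 and 3.35 CPM in the Drd1 type and 5.96 and 2.75 CPM in the Drd2 type. It was at 19.4 and 16.6 CPM in the Esr1 type and at 18.9 and 18.1 CPM in the Slc17a6 type, where it was the only member called higher (log2 fold 1.16 ± 0.16, edgeR adjusted p = 7.1e-05). Its levels in the Esr1 type overlapped those in the Slc17a6 type and those in the Lhx8 type, at 17.2 and 13.4 CPM. Adcy3, Adcy9 and Adcy10 were called in no type: Adcy3, the cyclase of cilia and of olfactory neurons, was at 31.1 to 45.4 CPM, Adcy9 at 73.9 to 122 CPM, and Adcy10, the soluble cyclase that bicarbonate activates, at 10.0 to 27.7 CPM.

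Among the genes of the nitric oxide receptor, the alpha subunit gene Gucy1a1 differed most between types. It stood at 201 CPM (US+) and 273 CPM (US-) in nuclei of the Drd2 type, above all 10 other sums (log2 fold 2.68 ± 0.07, edgeR adjusted p = 9.0e-13). The Chst9/Foxp2 type followed with 92.6 and 107 CPM and the Drd1 type with 83.4 and 105 CPM, and these neighbours overlapped. It fell to 17.3 and 22.0 CPM in the Esr1 type, below every other sum (log2 fold -1.96 ± 0.10). Gucy1b1, the beta subunit gene that lies beside Gucy1a1 on chromosome 3, had its highest level in the same type, with 143 and 150 CPM in the Drd2 type and 80.5 and 98.3 CPM in the Drd1 type. Its lowest was also in the Esr1 type, with 38.5 and 43.6 CPM. Its log2 folds were 1.46 ± 0.07 in the Drd2 type (edgeR adjusted p = 5.9e-10) and -1.06 ± 0.08 in the Esr1 type (edgeR adjusted p = 4.1e-07). Gucy1a2, the gene of the other alpha subunit, was called in no type and stayed between 268 and 422 CPM. Of the membrane cyclases only Gucy2f was called, higher in the Esr1 type (log2 fold 1.66 ± 0.53, edgeR adjusted p = 0.040). That call rests on 17 US+ and 5 US- UMIs, and DESeq2 gave it an adjusted p of 0.11.

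**Figure D2:**
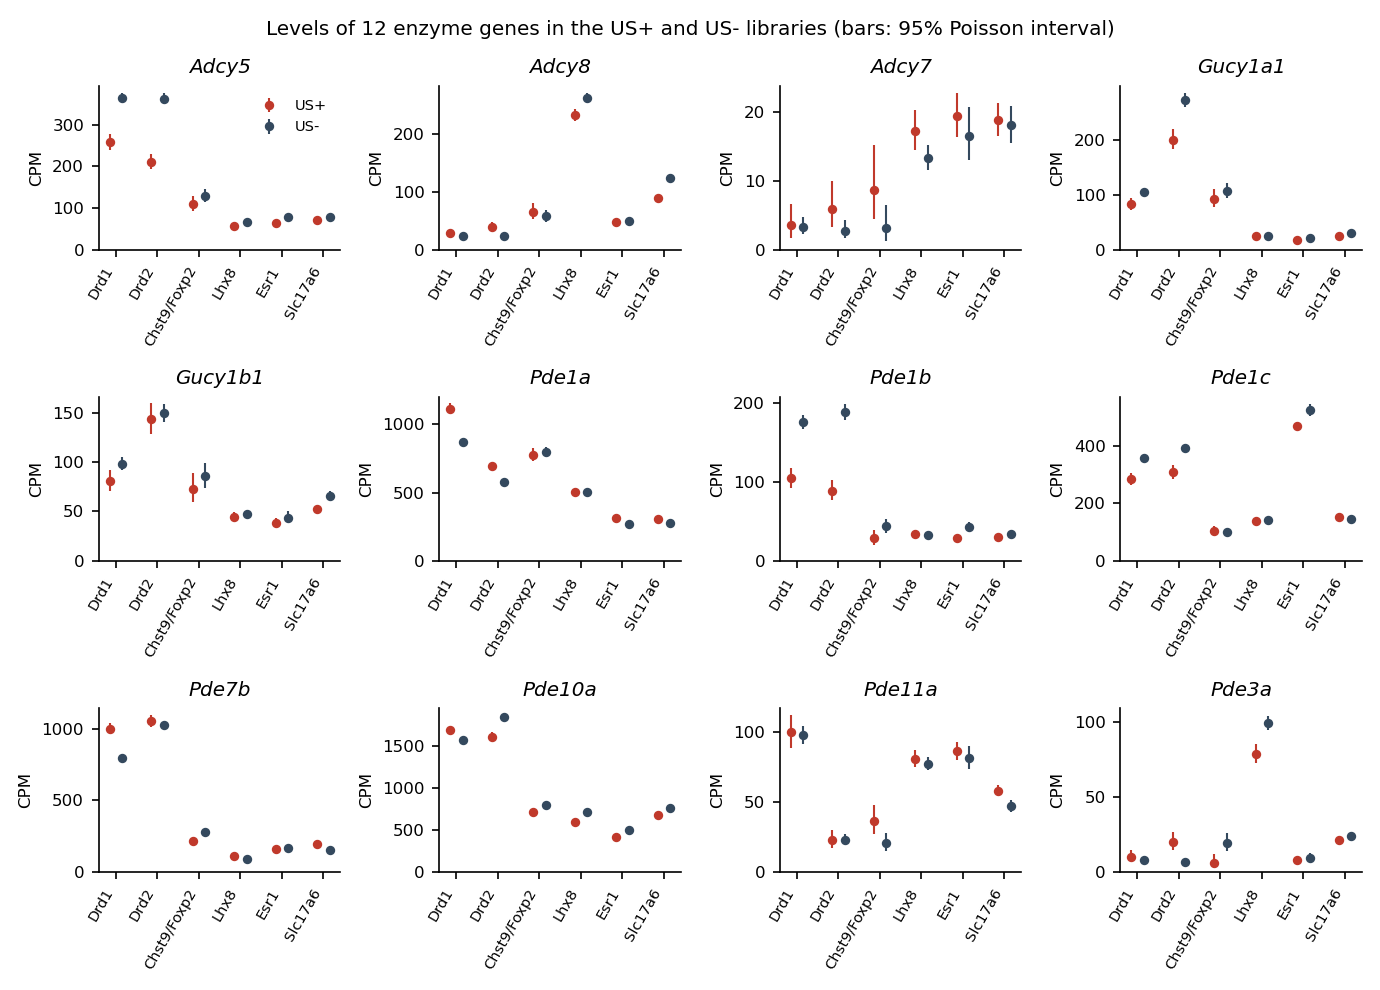
Levels in CPM of 12 members by type of nucleus, with US+ (red) left of US- (dark) and bars for 95% Poisson intervals, which cover counting error only. Gucy1a1 and Gucy1b1 peak in the Drd2 type, Pde1c in the Esr1 type and Pde3a in the Lhx8 type, and Pde11a stands near 23 CPM in the Drd2 type of both libraries.

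Pde1a, Pde1b and Pde1c, which calcium and calmodulin activate, each had a pattern of their own. Pde1b was at 105 CPM (US+) and 176 CPM (US-) in nuclei of the Drd1 type and at 89.0 and 189 CPM in the Drd2 type, against 28.4 to 43.6 CPM in the other 8 sums. Its log2 folds were 1.79 ± 0.16 and 1.78 ± 0.17 (edgeR adjusted p = 8.5e-05 and 1.1e-04). Pde1a peaked in the Drd1 type, with 1116 and 875 CPM, above the Chst9/Foxp2 type with 776 and 800 CPM and the Drd2 type with 692 and 579 CPM, and these 3 types did not overlap. It was called higher in the Drd1 type (log2 fold 1.27 ± 0.07, edgeR adjusted p = 4.4e-09) and lower in the Esr1 and Slc17a6 types (-1.19 ± 0.09 and -1.21 ± 0.09). Pde1c instead peaked in the Esr1 type at 469 and 526 CPM, above all 10 other sums, and was lowest in the Chst9/Foxp2 type at 104 and 100.3 CPM. The log2 folds of Pde1c were 1.25 ± 0.07 (edgeR adjusted p = 1.5e-08) and -1.34 ± 0.10 (edgeR adjusted p = 2.4e-07).

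Pde2a and Pde3a, which cGMP stimulates and inhibits when they cut cAMP, had opposite patterns in the Lhx8 type. Pde2a was at 29.7 CPM (US+) and 29.3 CPM (US-) in nuclei of that type, below all other sums, which began at 61.6 CPM (log2 fold -1.95 ± 0.20, edgeR adjusted p = 1.7e-04). Pde3a was at 78.6 and 99.0 CPM there, above all other sums, which ended at 23.5 CPM (log2 fold 2.91 ± 0.27, edgeR adjusted p = 2.5e-04). Pde3a showed the highest fold of any member in any type. Pde2a was highest in the striatal types, with 132 and 212 CPM in the Drd1 type and 123 and 247 CPM in the Drd2 type. Pde3b, the relative of Pde3a known from fat and liver, was called nowhere and lay between 52.1 and 92.8 CPM.

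Of the cAMP-specific phosphodiesterases, Pde7b and Pde8b were high in the striatal types while Pde7a and Pde8a were not. Pde7b stood at 1002 CPM (US+) and 800.2 CPM (US-) in nuclei of the Drd1 type and at 1055 and 1025 CPM in the Drd2 type, against 91.7 to 279 CPM in the other 8 sums. Its log2 folds were 2.10 ± 0.10 and 2.37 ± 0.09 (edgeR adjusted p = 9.5e-09 and 3.0e-09). It was called lower in the Lhx8, Esr1 and Slc17a6 types, for which the mean of the others includes both striatal types. In the Lhx8 type it lay below all other sums, and in the Esr1 and Slc17a6 types it overlapped other sums. Pde7a, its relative, lay between 70.0 and 114 CPM in all 12 sums and was called in no type. Pde8b was at 708 and 405 CPM in the Drd1 type and at 672 and 505 CPM in the Drd2 type (log2 folds 1.13 ± 0.15 and 1.26 ± 0.15, edgeR adjusted p = 9.5e-04 and 5.2e-04). It was lowest in the Lhx8 type, at 166 and 155 CPM. Pde8a lay between 6.70 and 19.8 CPM and was called in no type.

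The Pde4 genes, whose products are cAMP-specific and inhibited by rolipram, differed less. Pde4b was called higher in the Drd2 type, with 1212 CPM (US+) and 1757 CPM (US-) (log2 fold 1.18 ± 0.09, edgeR adjusted p = 2.0e-06), where it overlapped the Chst9/Foxp2 type with 1235 and 1364 CPM. It was called lower in the Esr1 type, with 492 and 456 CPM. Pde4d ran from 759 CPM in US- nuclei of the Drd1 type to 2017 CPM in US- nuclei of the Esr1 type, and Pde4a from 47.6 to 112 CPM. Neither passed the 2-fold limit in any type.

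Pde10a and Pde11a cut both nucleotides. Pde10a, a marker enzyme of striatal projection neurons, was at 1691 CPM (US+) and 1579 CPM (US-) in nuclei of the Drd1 type and at 1616 and 1852 CPM in the Drd2 type. The other 8 sums lay between 419 and 797 CPM, with the Esr1 type lowest. The log2 folds were 1.26 ± 0.07 in the Drd1 type, 1.36 ± 0.07 in the Drd2 type and -1.28 ± 0.08 in the Esr1 type (edgeR adjusted p = 1.9e-09, 7.9e-10 and 4.0e-08). Pde11a separated the striatal types from each other. It was at 99.8 and 97.6 CPM in the Drd1 type, above all 10 other sums, but at 23.0 and 22.9 CPM in the Drd2 type, and its log2 folds were 1.26 ± 0.09 and -1.24 ± 0.12 (edgeR adjusted p = 6.8e-08 and 2.6e-06). Pde11a was also low in the Chst9/Foxp2 type, at 36.4 and 20.7 CPM. The Esr1 type, at 86.3 and 81.3 CPM, and the Lhx8 type, at 80.8 and 77.4 CPM, came close to the Drd1 type.

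The cGMP-specific Pde9a was at 47.7 and 63.9 CPM (US+ and US-) in the Drd2 type and at 29.8 and 25.5 CPM in the Lhx8 type. Its edgeR adjusted p was 8.9e-05 in the Drd2 type, with a log2 fold of 0.86 ± 0.12, under the 2-fold limit. Pde6a, known from rod photoreceptors, was called lower in the Lhx8 type with 7.24 and 10.3 CPM (log2 fold -1.02 ± 0.25, edgeR adjusted p = 0.013). Pde6d, which despite its name codes for a prenyl-binding protein and not for a catalytic subunit, lay between 19.7 and 31.2 CPM and was called in no type.

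**Figure D3:**
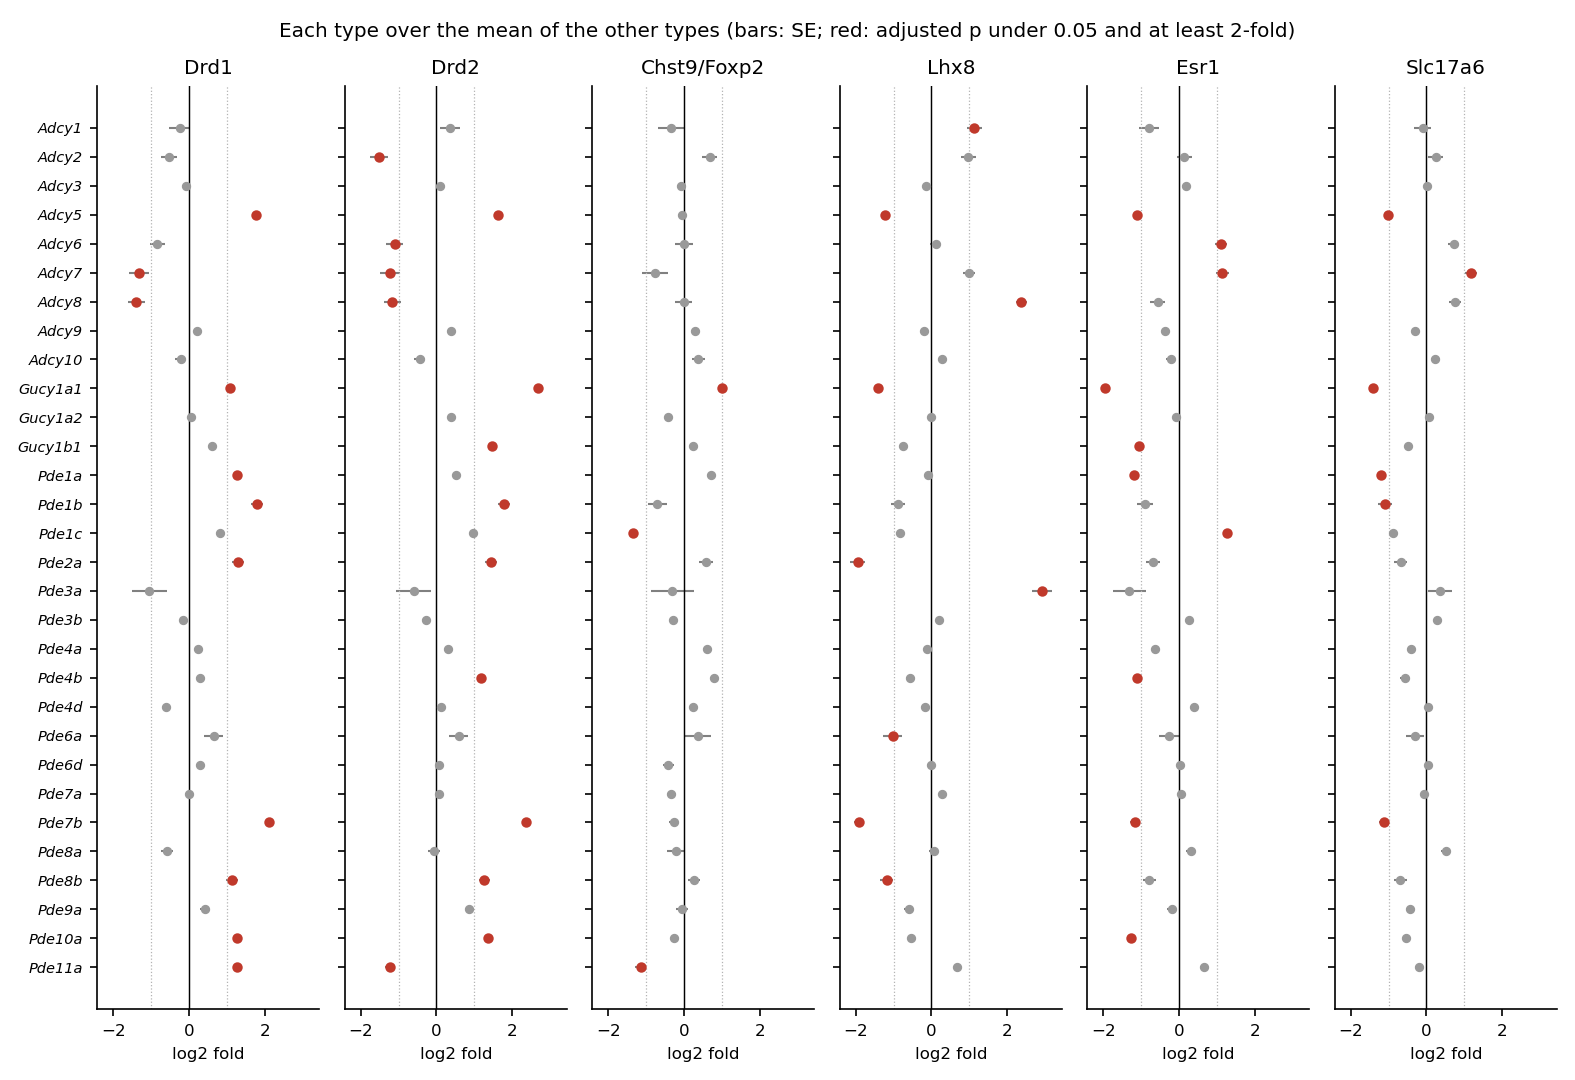
Log2 fold of each type over the mean of the other types for the 30 tested members that reached 3 CPM in a sum, with SE bars, and in red those with an adjusted p under 0.05 and at least 2-fold (dotted lines). Pde7b and Adcy5 are red to the right in the Drd1 and Drd2 panels and red to the left in the Lhx8, Esr1 and Slc17a6 panels. The mean behind the Lhx8, Esr1 and Slc17a6 panels includes the Drd1 and Drd2 types.

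Set directly against each other, the Drd1 and Drd2 types differed in 2 members at the 2-fold limit, Pde11a (log2 fold of Drd1 over Drd2 2.08 ± 0.14, edgeR adjusted p = 4.9e-07) and Gucy1a1 (-1.34 ± 0.10, edgeR adjusted p = 9.8e-07). Among all genes 0.411% were called higher and 0.366% lower in this contrast, 0.777% in all. At any fold, 6 members had an adjusted p under 0.05, against 1.55% of all genes: besides these, Pde1a was higher in the Drd1 type, and Pde4b, Gucy1b1 and Pde4d were higher in the Drd2 type. Adcy5 and Pde10a, each at a log2 fold within 0.12 of 0 (0.12 ± 0.12 and -0.08 ± 0.10), did not differ beyond this spread. The calls of Pde11a and Gucy1a1 held under every alternative tried.

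How nuclei of several types were treated decided many calls at the 2-fold limit. When nuclei that met several marker rules were counted in each of their types, 5 members in place of 11 were called in the Drd1 type, 6 in place of 14 in the Drd2 type and 2 in place of 11 in the Esr1 type. Of the 33 calls lost that way, 31 kept an adjusted p under 0.05 and lost only the fold. From the US+ library alone, with no test, 9 members were past 2-fold in the Drd2 type, 5 in the Chst9/Foxp2 type and 2 in the Slc17a6 type, and from the US- library alone 17, 6 and 7. Between the Drd1 and Drd2 types, 4 members were past it in each library alone. The share of all genes called with nuclei of several types, or past 2-fold in a single library, was not counted. These counts therefore have no background.

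US+ and US- nuclei were then compared within each type. With 1 library per group this has no test: ratios of CPM, US+ over US-, are given with 95% intervals for counting error only, and a ratio of at least 1.5 or at most 1/1.5 with at least 50 UMIs was counted as past the limit. In the Drd2 type 9 of 29 members were past it (17.1% of all genes were), in the Drd1 type 6 of 29 (17.5%) and in the Chst9/Foxp2 type 4 of 27 (10.9%). In the Lhx8 type it was 1 of 31 (4.83%), in the Esr1 type 1 of 30 (5.27%) and in the Slc17a6 type 1 of 31 (4.81%). Apart from the Drd2 type, the members' share thus lay near or under that of all genes.

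Pde1b and Pde2a were lower in US+ nuclei of both striatal types. Pde1b was at 105 CPM in US+ against 176 CPM in US- nuclei of the Drd1 type (ratio 0.59, 0.52 to 0.67) and at 89.0 against 189 CPM in the Drd2 type (0.47, 0.41 to 0.55). Pde2a was at 132 against 212 CPM in the Drd1 type (0.62, 0.56 to 0.70) and at 123 against 247 CPM in the Drd2 type (0.50, 0.44 to 0.57). Pde1b was also lower in US+ nuclei of the Chst9/Foxp2 type, at 28.4 against 43.6 CPM (0.65, 0.44 to 0.95), and inside the limit in the Esr1 type, at 28.9 against 42.3 CPM (0.68, 0.56 to 0.83), and the Slc17a6 and Lhx8 types (0.88 and 1.06). Pde2a lay between ratios of 0.91 and 1.01 in these 4 types. Pde6a followed the same direction, with 14.6 against 25.2 CPM in the Drd1 type and 9.37 against 26.5 CPM in the Drd2 type. Adcy5 was at 211 against 363 CPM in the Drd2 type (0.58, 0.53 to 0.64) and at 259 against 364 CPM in the Drd1 type, which is inside the limit.

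Pde8b, whose product cuts cAMP with high affinity, went the other way. It was at 708 CPM in US+ against 405 CPM in US- nuclei of the Drd1 type (ratio 1.75, 1.65 to 1.84) and at 672 against 505 CPM in the Drd2 type, while in the Slc17a6 type it was at 232 against 234 CPM. Adcy2 was at 117 against 60.3 CPM in the Drd2 type (1.93, 1.66 to 2.26) and Adcy8 at 38.7 against 22.9 CPM there (1.69, 1.29 to 2.19). Adcy1 was at 24.8 against 12.6 CPM in the Drd1 type (1.96, 1.43 to 2.66) and at 17.7 against 10.9 CPM in the Esr1 type (1.62, 1.17 to 2.29). Pde7b and Pde10a, though high in the striatal types, stayed inside the limit there. Pde8a in the Lhx8 type was at 14.8 against 9.74 CPM (1.52, 1.19 to 1.94). The remaining ratios past the limit rested on under 100 UMIs.

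**Figure D4:**
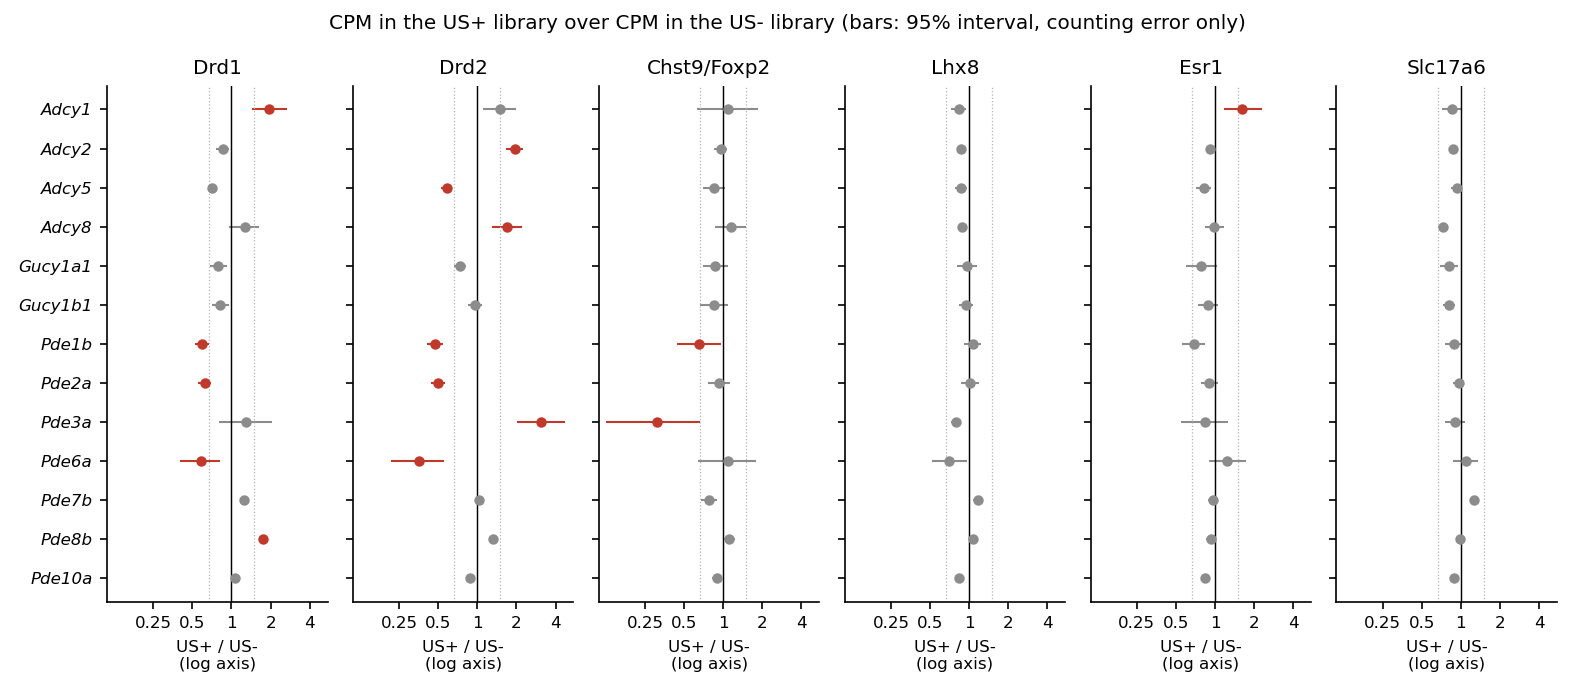
Ratio of CPM in US+ over CPM in US- nuclei for 13 members with at least 50 UMIs, by type, on a log axis, with bars for 95% intervals of counting error and in red those past 1.5-fold (dotted lines). Pde1b, Pde2a and Pde6a lie to the left and Pde8b to the right in the Drd1 panel, and in the Lhx8 and Slc17a6 panels none of the 13 is red, while Pde8a (1.52, Lhx8) and Pde5a (1.59, Slc17a6), past the limit there, are not drawn.

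Other values moved with these. A list of 13 early genes such as Fos and Npas4 summed to 684 CPM in US+ against 81.7 CPM in US- nuclei of the Drd1 type, to 542 against 80.1 CPM in the Drd2 type and to 907 against 113 CPM in the Chst9/Foxp2 type. In the Lhx8, Esr1 and Slc17a6 types it was at 83.1 against 59.1, 57.5 against 33.8 and 98.4 against 68.9 CPM. The Drd1 and Drd2 types were 4.77% of kept US+ nuclei, against 15.5% of US- nuclei, and the 4 striatal markers together were lower in US+ nuclei of both types, as given above. With only nuclei that held at least 3 of these 4 markers (149 US+ and 679 US- nuclei of the Drd1 type, 109 US+ and 515 US- of the Drd2 type), a setting chosen after seeing the data, the ratio of Pde8b in the Drd1 type was 1.92 and that of Pde2a 0.57. Under this setting Pde1b was at 0.70 in the Drd1 type, inside the limit, and at 0.59 in the Drd2 type. Adcy5, Adcy2 and Pde6a in the Drd2 type were at 0.65, 2.27 and 0.19, and Adcy8 there was at 1.05, inside the limit. Markers of oligodendrocytes, 6 genes in all, summed to 84.2 CPM in US+ against 49.4 CPM in US- nuclei of the Drd1 type, to 74.9 against 36.4 CPM in the Drd2 type and to 79.4 against 47.7 CPM in the Chst9/Foxp2 type. In the Lhx8, Esr1 and Slc17a6 types they were at 67.2 against 50.1, 85.1 against 57.6 and 75.2 against 53.3 CPM, and over all kept nuclei at 97.0 against 55.9 CPM. The 5 preoptic markers summed to 15.8 CPM in US+ against 5.36 CPM in US- nuclei of the Drd2 type. In the Drd1 and Chst9/Foxp2 types they were at 7.29 against 5.62 and 7.29 against 2.70 CPM. In the Lhx8, Esr1 and Slc17a6 types they were at 23.5 against 25.0, 29.8 against 31.8 and 28.9 against 40.5 CPM. Markers of the Slc17a6 type (Adcyap1, Sim1, Ebf1, Tbr1 and Nrn1) summed to 87.7 CPM in US+ against 20.3 CPM in US- nuclei of the Esr1 type. In the Lhx8 and Slc17a6 types they were at 22.1 against 6.33 and 363 against 240 CPM. In the Drd1, Drd2 and Chst9/Foxp2 types they were at 57.9 against 64.1, 26.8 against 25.8 and 40.1 against 32.8 CPM. The part of these values in the ratios was otherwise not tested.

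Over all kept nuclei, 7 of 38 members were past the limit (11.0% of all genes): Pde1b was at 36.8 CPM in US+ against 73.3 CPM in US- nuclei (ratio 0.50), Gucy1a1 at 34.4 against 64.4 CPM (0.53) and Adcy5 at 84.5 against 153 CPM (0.55). Pde2a was at 66.6 against 102 CPM and Pde3a at 26.5 against 40.7 CPM (both 0.65). Within the Drd1 and Drd2 types, Gucy1a1 was at ratios of only 0.79 and 0.74. These are sums over all types, so that fewer nuclei of a type and less RNA per nucleus cannot be told apart in them. Gucy2f (1.37 against 0.758 CPM) and Pde5a (1.90 against 1.19 CPM) were the members higher in US+ nuclei.

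The other genes of the pathway were read from 10 lists, of which 59 of 67 genes were tested. Shares of all tested genes called the same way stand in brackets. In the Drd1 type 7 pathway genes were called higher (4.19%) and 4 lower (3.37%), and in the Drd2 type 8 (4.11%) and 3 (2.91%). The Chst9/Foxp2 type had 1 higher (2.44%) and 0 lower (0.554%), and the Lhx8 type 2 (4.80%) and 5 (4.08%). The Esr1 type had 2 (2.96%) and 6 (2.74%), and the Slc17a6 type 4 (3.84%) and 6 (2.26%). The median log2 fold of the pathway genes was 0.17 in the Drd1 and 0.089 in the Drd2 type. The median of the tested members there was 0.14 and 0.31, and that of all genes was within 0.023 of 0. Between the Drd1 and Drd2 types none of the pathway genes was called (0.777% of all tested genes).

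Gng7 and Gnal, the G protein subunits that couple striatal receptors to Adcy5, were called higher in both striatal types. Gng7 stood at 168 CPM (US+) and 292 CPM (US-) in nuclei of the Drd1 type and at 166 and 335 CPM in the Drd2 type, against at most 89.5 CPM elsewhere (log2 folds 2.36 ± 0.12 and 2.51 ± 0.13). Gnal was at 622 and 649 CPM in the Drd1 type and 566 and 718 CPM in the Drd2 type, against at most 301 CPM elsewhere (1.69 ± 0.06 and 1.72 ± 0.06). Gnas, whose product takes that place in most other cells, was called lower in the Drd1 type, at 238 and 125 CPM (-1.17 ± 0.20, edgeR adjusted p = 0.0043). Gnb5 was called higher in the Drd2 type (log2 fold 1.16 ± 0.10).

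Downstream of cAMP, Prkar2b, a regulatory subunit of protein kinase A, Akap5, which anchors that kinase at synapses, and the striatal phosphoproteins Ppp1r1b (DARPP-32) and Arpp21 were called higher in both striatal types. Ppp1r1b was at 29.9 CPM (US+) and 32.0 CPM (US-) in nuclei of the Drd1 type and at 22.1 and 43.3 CPM in the Drd2 type, against at most 13.9 CPM elsewhere (log2 folds 2.62 ± 0.23 and 2.78 ± 0.23). Akap5 was at 102 and 76.6 CPM in the Drd1 type and 89.8 and 71.8 CPM in the Drd2 type, against at most 31.3 CPM elsewhere (2.05 ± 0.09 and 1.90 ± 0.09). Ppp1r1b also served as a marker of these types. All 4 were called lower in the Lhx8, Esr1 and Slc17a6 types, for which the mean of the others includes both striatal types.

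Of the 6 tested genes for nitric oxide synthases and the natriuretic system and the 7 for cyclic nucleotide-gated channels, Nos1, Npr3, Cnga3, Cngb1, Cngb3 and Hcn4 were called in a type. Nos1, the neuronal nitric oxide synthase, was called lower in the Drd2 type, at 13.2 CPM (US+) and 6.32 CPM (US-) (log2 fold -1.48 ± 0.30, edgeR adjusted p = 0.0075), the type in which Gucy1a1 and Gucy1b1 were highest. Among the 6 tested genes for nitric oxide synthases and the natriuretic system, 1 was called lower in the Drd1 type as well. Nos1 was called higher in the Slc17a6 type, at 42.9 and 51.5 CPM. Npr3, the clearance receptor of natriuretic peptides, was called higher in the Lhx8 type at 8.44 and 9.24 CPM (2.11 ± 0.20, edgeR adjusted p = 1.6e-06), and Cnga3, a cGMP-gated channel of cones, in the Slc17a6 type at 5.88 and 7.52 CPM (2.75 ± 0.43, edgeR adjusted p = 7.4e-04). Neither of the cGMP-dependent kinases, Prkg1 and Prkg2, was called in a type.

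**Figure D5:**
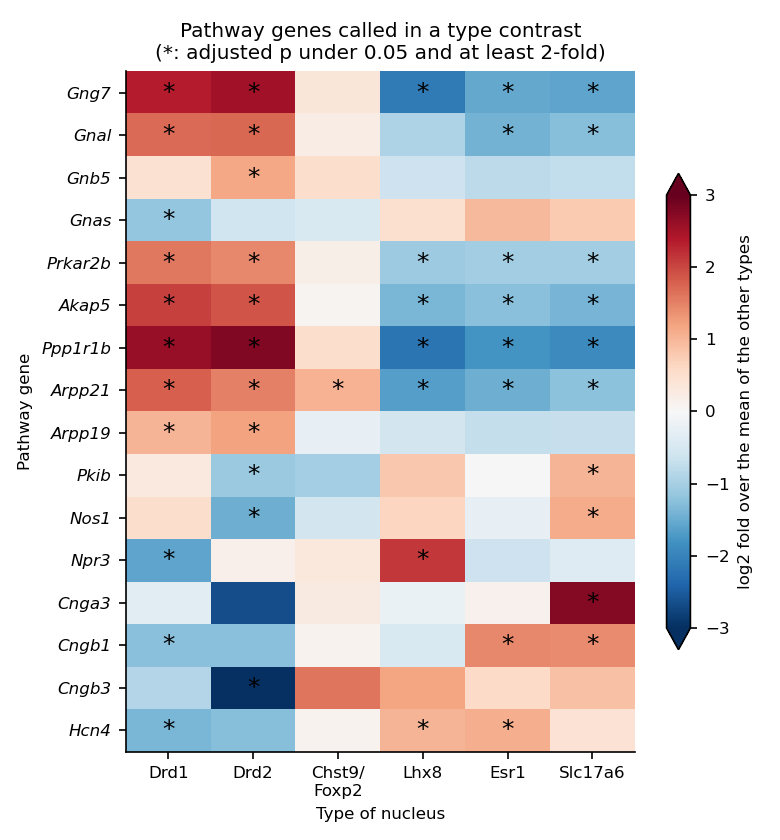
Log2 fold of each type over the mean of the other types (colour) for 16 pathway genes called in at least 1 type, with an asterisk where the adjusted p was under 0.05 and the fold at least 2. Gng7, Akap5 and Ppp1r1b are red with an asterisk in the Drd1 and Drd2 columns and blue with one in the Lhx8, Esr1 and Slc17a6 columns. The mean behind the Lhx8, Esr1 and Slc17a6 columns includes the Drd1 and Drd2 types.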

How the data were processed

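The files were the gene-by-nucleus matrices of UMI counts that the authors deposited. They had been produced by Cell Ranger 6.1.1 with mm10 as its reference, and no scaling per nucleus had been applied. Whether intronic reads were counted is not given in the sources used here. Nuclei were filtered as in the report. The only bound on doublets was the upper limit of 7500 genes, and 1360 nuclei that met several marker rules were left out of the types. The libraries shared 29 barcodes. Median UMIs per kept nucleus were 7376 in US+ and 7663 in US-. Of the nuclei that passed the limits on genes and mitochondrial UMIs, 16.7% of US+ and 5.34% of US- were left out for under 2000 UMIs.

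Counts were summed per type and library and fitted with edgeR 4.0.16 in R 4.3.3 (TMM scaling, filterByExpr, quasi-likelihood F test, 12 sums, 7 contrasts). The fits and the ratios were tested on simulated data before use. CPM intervals are exact Poisson and ratio intervals exact binomial (scipy 1.17.1), and both cover counting error only.

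Members and gene lists were chosen with earlier results of these data known. Named were members called in a type, preset pairs of relatives, members past 1.5-fold between libraries with at least 100 UMIs, and of each pathway list the 2 highest and 2 lowest called genes. A protein signature search was not run, and 1 marker of the lists is not reported here. Alternatives were other type rules and depths, DESeq2 1.42.0, other scaling, no low-count filter, no library block and each library alone.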

Additional observations from a re-analysis of the deposited data

Results flagged for a closer look

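Pde3a, a cAMP phosphodiesterase that cGMP inhibits, differed in direction between types. In the Drd2 type its ratio of US+ over US- was 3.10 (20.0 CPM against 6.45 CPM, from 47 UMIs in each library), and in the Chst9/Foxp2 type it was 0.31 (5.83 CPM against 18.9 CPM, from 8 and 42 UMIs). The counting intervals, 2.02 to 4.75 and 0.13 to 0.67, do not meet. The difference between these types was not tested, since each group is 1 library, and both counts are low. Both values are far below the Lhx8 type, where Pde3a was at 78.6 CPM against 99.0 CPM.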

How the results depend on the processing

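Of the 56 calls of a member in a type or between the Drd1 and Drd2 types, 20 held under every alternative with a test and stayed at 2-fold or more in each library alone, and none of the 56 turned its direction. Counting nuclei of several types in each of them left 5 of 11 calls in the Drd1 type, 6 of 14 in the Drd2 type, 0 of 3 in the Chst9/Foxp2 type, 2 of 11 in the Esr1 type and 1 of 6 in the Slc17a6 type (edgeR). Over all alternatives, 48 of the 54 losses of a call (a call counted once for each alternative that ended it) kept an adjusted p under 0.05 and lost the fold alone. With total UMIs only in place of TMM, the median log2 fold of all genes moved to -0.17 in the Drd1, -0.20 in the Drd2, 0.16 in the Esr1 and 0.21 in the Slc17a6 type, and 3 members were called in the Slc17a6 type. An adjusted p under 0.05 at any fold gave 18 members in the Drd1 type, 22 in the Drd2, 8 in the Chst9/Foxp2, 20 in the Lhx8, 19 in the Esr1 and 19 in the Slc17a6 type, and 6 between the Drd1 and Drd2 types. From the US+ or the US- library alone, with no test, 9 or 17 members were past 2-fold in the Drd2 type, 5 or 6 in the Chst9/Foxp2 type, 2 or 7 in the Slc17a6 type and 4 in each library between the Drd1 and Drd2 types. For a single library, the share of all genes past 2-fold was not counted. Nor was the share of all genes called under the other type rule, with total UMIs only or without the library block. No paired analysis was possible between US+ and US- because each is 1 library. Without the library as a replicate block in the type contrasts, the counts of calls were 11 in the Drd1, 14 in the Drd2, 3 in the Chst9/Foxp2, 8 in the Lhx8, 10 in the Esr1 and 6 in the Slc17a6 type and 2 between the Drd1 and Drd2 types, and Gucy2f in the Esr1 type (adjusted p = 0.072, edgeR) and Pde6a in the Lhx8 type were no longer called.

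Between libraries, 2-fold as the limit left 0 members in the Drd1 type, 5 in the Drd2, 1 in the Chst9/Foxp2 and 0 each in the Lhx8, Esr1 and Slc17a6 types and over all kept nuclei. The shares of all genes past the limit were not counted for this or the following settings, so these counts have no background. In the Chst9/Foxp2 type 2 members were past 1.5-fold with at least 5000 UMIs per nucleus and 0 with nuclei thinned to 2000 UMIs. In the Esr1 type it was 4 with nuclei of several types and 2 with thinned nuclei. In the Slc17a6 type it was 2 with nuclei of several types, 0 with thinned nuclei and 0 with the stricter marker minimum. Settings with fewer UMIs per sum can also take members under the minimum of 50 UMIs. Thinning cut the Chst9/Foxp2 sums from 1371944 to 366000 UMIs (US+) and from 2223068 to 612000 UMIs (US-). Of the members past the limit there, Pde1b had the most, 39 US+ and 97 US- UMIs. Pde5a, past the limit in the Slc17a6 type, had 35 and 17. The counts of 0 with these settings therefore cannot tell a ratio inside the limit from too few UMIs. Adcy8 in the Drd2 type had a ratio of 1.05 when at least 3 of 4 striatal markers were required, a setting added after seeing the data. The causes were not tested. Values under about 3 CPM rest on few UMIs in the small types.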
